A study of Mus musculus with 9 samples.

Results

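The miR-29 and miR-30 families were followed in cultured mouse hippocampal neurons under 3 conditions. The members are mmu-miR-29a, mmu-miR-29b and mmu-miR-29c of the miR-29 family and mmu-miR-30a, mmu-miR-30b, mmu-miR-30c, mmu-miR-30d and mmu-miR-30e of the miR-30 family. They were taken by exact name from the array design, without the star names that mark the other arm of a hairpin, and all 8 were found among its 650 miRNAs. Hippocampal neurons were taken from C57BL/6 mice at postnatal day 1 and kept in culture for 10 days. The 9 one-colour Agilent miRNA arrays fell into 3 groups of 3, which held untreated control neurons, neurons given 20 µM NMDA and neurons given 50 µM bicuculline, with RNA from the treated cultures taken 4 h after stimulation. NMDA in the bath activates NMDA receptors inside and outside synapses, while bicuculline blocks GABA-A receptors and so drives synaptic activity. The study's methods describe a brief NMDA exposure that was washed out, whereas the labels list one continuous treatment, and the study's text also names the co-agonist glycine for the stimulation, which the labels do not. Its text and methods give a higher NMDA dose in places as well, and the dose printed here is that of the labels. All cultures were of 1 strain and carried no genetic change, and the replicates came from independent cell preparations.

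A mature miRNA guides the silencing machinery to messenger RNAs that pair with its seed, the bases from the second to the eighth position, so members of a family with the same seed can share targets. The miR-29 family is known to rise as neurons mature, and its known targets include pro-apoptotic BH3-only genes, DNA methyltransferases and many collagens. The miR-30 family is widely expressed, brain included, and its known targets include the neurotrophin Bdnf and the autophagy gene Beclin 1. The cultures were compared here to see whether either family moved with toxic NMDA receptor stimulation or with synaptic activity.

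Mature sequences in the RefSeq table for GRCm38.p6 were found for 6 of the 8 members. They are printed 5′ to 3′ with the seed in capitals, because the seed is what defines each family and the remaining bases are what the array probes must tell apart.
mmu-miR-29a: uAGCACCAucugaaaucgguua
mmu-miR-29b: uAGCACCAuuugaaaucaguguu
mmu-miR-29c: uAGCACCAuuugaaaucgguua
mmu-miR-30a: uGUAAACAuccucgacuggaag
mmu-miR-30c: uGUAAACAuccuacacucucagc
mmu-miR-30e: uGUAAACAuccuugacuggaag
Every difference within a family lay after the seed. Counted from 1 at the 5′ end, mmu-miR-29a and mmu-miR-29c differed by the single change C10U, and mmu-miR-30a and mmu-miR-30e by the single change C13U. The pair mmu-miR-29b and mmu-miR-29c differed by A18G, G21U and U22A over the 22 positions compared, and mmu-miR-30a and mmu-miR-30c differed at 5 positions, from C13A to A20C. Whether signal passed between such close relatives on the array was not tested.

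The miR-29 seed occurred in 3 of 1679 mature miRNA names of that table, all of them members, and the miR-30 seed in 4. That count leaves out mmu-miR-30b and mmu-miR-30d, which had no entry in the table. The fourth name with the miR-30 seed was mmu-miR-384-5p, which was also on the array.
mmu-miR-384-5p: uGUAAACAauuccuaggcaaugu
The families are made from 10 hairpin genes, which lay in 5 pairs of direct neighbors in RefSeq's gene order, taken from a separate table. These were Mir29a with Mir29b-1, Mir29b-2 with Mir29c, Mir30a with Mir30c-2, Mir30e with Mir30c-1, and Mir30b with Mir30d. Both Mir29b genes, and both Mir30c genes, gave the same mature sequence, so the array could not tell their products apart.

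Levels are given as a percent of each array's own scale, which is the 75th percentile of signal over the 265 probes measurable (well above background) on each of the 9 arrays. Each miRNA was read from the brightest of its probes. Levels of different miRNAs were not set against each other, because probes differ in how well they hybridize. A miRNA entered a comparison if every array of either group measured it well above background, and each of the 8 members met this on all 9 arrays by its brightest probe. Probes of each member rested on 5 to 10 spots per array. The number of arrays, 3 per group, was what limited the precision.

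Array quality touched every result below. The 9 arrays lay on 2 slides, with control 1 and 2, NMDA 1 and 2 and bicuculline 1 on slide 1 and the others on slide 2. NMDA and control were thus balanced over the slides, and bicuculline was not balanced with either. Between 162 and 221 miRNAs were well above background per array, and the scale itself ranged from an intensity of 416 on bicuculline 3, the dimmest array, to 645 on NMDA 2. Markers of neurons were in place, as all 6 neuron-enriched miRNAs on a short list (mmu-miR-124, mmu-miR-9, mmu-miR-128, mmu-miR-137, mmu-miR-138 and mmu-miR-218) were well above background on each array. So were all 5 astroglia-enriched miRNAs and mmu-miR-338-3p of oligodendrocytes, whereas mmu-miR-219 of oligodendrocytes, 4 of 5 microglia and blood miRNAs and both red blood cell miRNAs were so on no array. The remaining microglia and blood miRNA, mmu-miR-146a, was so on 3 control, 3 NMDA and 2 bicuculline arrays, at 6.60 to 11.6 percent of the scale over all 9. Of the 2 endothelial miRNAs, mmu-miR-126-5p was so on no array and mmu-miR-126-3p on 1 control, 2 NMDA and 2 bicuculline arrays, at 6.74 to 8.94 percent of the scale over all 9. In such bulk RNA fewer cells of a type and less RNA per cell cannot be told apart.

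Neither family passed the test in any comparison. limma's adjusted p was above 0.05 for all 8 members after NMDA, after bicuculline and between the treatments. No member had an unadjusted p under 0.05 in these fits, which had no block. Other scalings, the authors' table and a joint fit of all arrays, also without a block, gave some members an unadjusted p under 0.05. Among all miRNAs in the reported fits, 15 of 181 tested passed after NMDA (8.29%), all of them higher. After bicuculline 1 of 161 passed (0.621%), which was higher. Between the treatments 16 of 181 passed (8.84%), with 15 higher and 1 lower after NMDA. Counts of 0 of 8 members stand beside these shares and are not far from them, since 8.29% of 8 is less than 1 miRNA. The split of calls depended on the scaling. With quantile normalization 13 miRNAs were called higher and 13 lower after NMDA, and 15 higher and 15 lower between the treatments. With scaling to all probes there were 14 higher and 4 lower after NMDA, and 16 higher and 127 lower between the treatments.

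**Figure D1:**
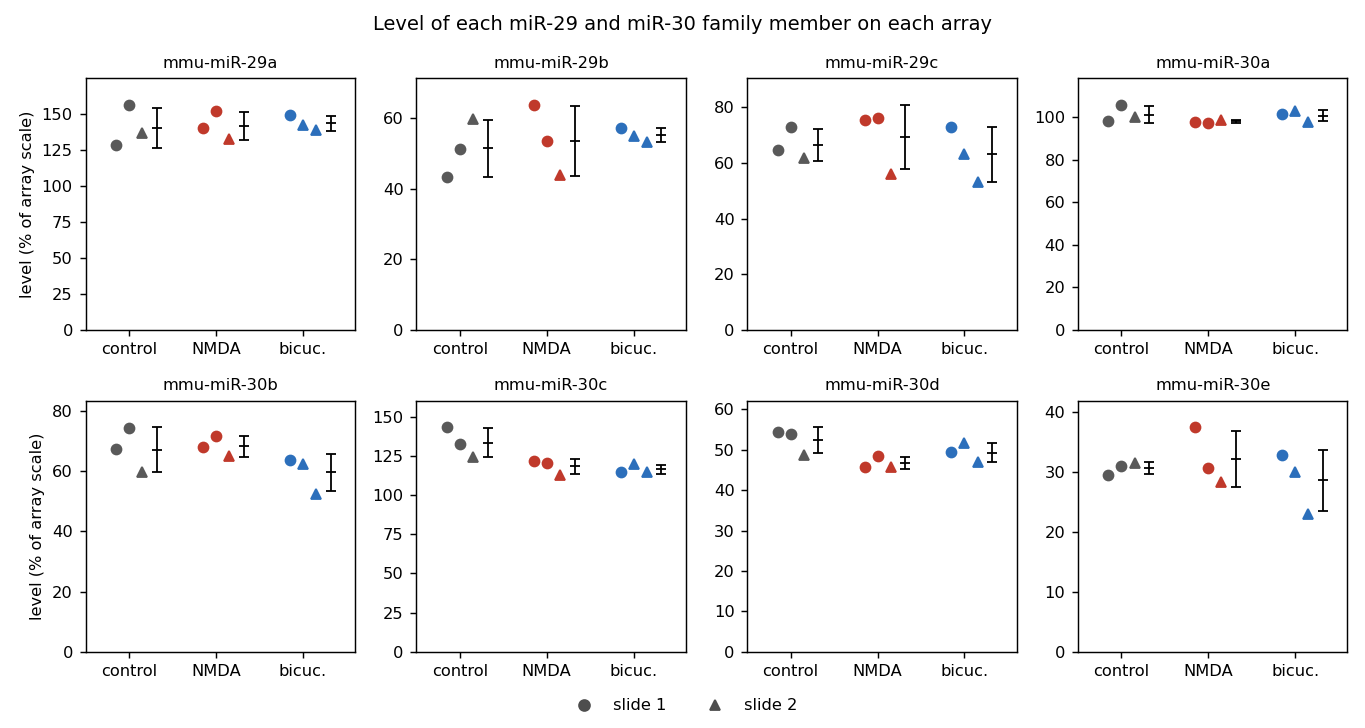
Level of each member (y axis, percent of the array's own scale, starting at 0) on each of the 9 arrays, by group, with circles for slide 1 and triangles for slide 2. The bar to the right of each group is the mean ± SD (n = 3). The control points of mmu-miR-30c, from 124 to 143, lie above all 6 treated points, and those of mmu-miR-30d, from 48.7 to 54.5, above all 3 NMDA points, while the groups overlap in every panel of the miR-29 family.

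The miR-29 family showed levels that overlapped between all 3 groups. mmu-miR-29a read 128, 156 and 136 percent of the scale on control arrays 1 to 3, 140, 152 and 132 on the NMDA arrays, and 149, 142 and 139 on the bicuculline arrays. The highest and the lowest of these 9 values were both controls, so the control group alone spanned the treated ones. Its means were 140 ± 14.1, 142 ± 9.88 and 143 ± 5.34 percent (SD, n = 3) for control, NMDA and bicuculline. NMDA differed from control by 0.02 on the log2 scale, with a 95% confidence interval from −0.22 to 0.26, and bicuculline by 0.04, from −0.19 to 0.27.

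For mmu-miR-29b the control arrays read 43.4, 51.1 and 59.7 percent, the NMDA arrays 63.6, 53.4 and 43.8, and the bicuculline arrays 57.2, 54.9 and 53.2. The bicuculline arrays lay close together inside the range of both other groups. Within slide 1 NMDA minus control was 0.31 on the log2 scale and within slide 2 it was −0.45, so the slides disagreed in direction, and the pooled difference was 0.06 (95% confidence interval −0.33 to 0.44). Bicuculline minus control was 0.11 (−0.17 to 0.40), with 0.28 within slide 1 and −0.14 within slide 2.

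The values of mmu-miR-29c were 64.7, 72.8 and 61.7 percent on the control arrays, 75.5, 76.2 and 55.9 on the NMDA arrays, and 73.0, 63.4 and 53.0 on the bicuculline arrays. In each group the slide 2 arrays were the low ones. Slide moved with this member more than treatment did, at 72.4 percent on average on slide 1 and 58.5 on slide 2, and with the groups held fixed slide 2 minus slide 1 was −0.31 on the log2 scale, the largest slide difference of the 8 members. Slide 2 held replicate 3 of every group and was read with another scanner software version. Slide, cell preparation and software cannot be told apart here. NMDA minus control was 0.05 (−0.28 to 0.37) and bicuculline minus control −0.08 (−0.39 to 0.22). The latter turned to 0.04 when bicuculline 3, the dimmest array, was left out, and it was −0.0014 with slide as a block.

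The miR-30 family held the members nearest to a difference. mmu-miR-30c, made from 2 hairpin genes, read 143, 133 and 124 percent on the control arrays, 122, 120 and 113 on the NMDA arrays, and 115, 120 and 115 on the bicuculline arrays. Each of the 6 treated arrays was below the lowest control, and the treated groups overlapped each other. The means were 133 ± 9.32 for control, 118 ± 4.61 after NMDA and 116 ± 3.13 after bicuculline (SD, n = 3). NMDA minus control was −0.17 ± 0.09 on the log2 scale (SE), a change of −11.3%, with an unadjusted p of 0.082 and a limma adjusted p of 0.615. Bicuculline minus control was −0.20 ± 0.09 (SE), a change of −12.7%, with an unadjusted p of 0.060 and a limma adjusted p of 0.999. Both comparisons use the same 3 control arrays, of which control 1 was the highest. Without it the differences were −0.12 and −0.14.

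mmu-miR-30d, whose hairpin gene neighbors that of mmu-miR-30b, read 54.5, 53.9 and 48.7 percent on the control arrays, 45.8, 48.4 and 45.8 on the NMDA arrays, and 49.4, 51.6 and 47.0 on the bicuculline arrays. The NMDA arrays lay below all controls, by a narrow margin at control 3, and the bicuculline arrays overlapped both groups. NMDA minus control was −0.17 ± 0.08 on the log2 scale (SE), a change of −10.8%, with an unadjusted p of 0.081 and a limma adjusted p of 0.615. Bicuculline minus control was −0.09 (95% confidence interval −0.29 to 0.12).

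NMDA and control arrays of the same replicate number deviated together, and within these pairs NMDA minus control was −0.23, −0.14 and −0.14 for mmu-miR-30c and −0.25, −0.15 and −0.09 for mmu-miR-30d. All 3 pairs ran in the same direction for 3 of 8 members, mmu-miR-30a being the third, against 42% of all miRNAs tested. For mmu-miR-30c and mmu-miR-30d this followed from the lack of overlap between NMDA and control arrays. With a replicate block the unadjusted p after NMDA was 0.017 for mmu-miR-30c and 0.030 for mmu-miR-30d, and the limma adjusted p was 0.134 and 0.202. With slide as a block the unadjusted p was 0.019 and 0.024, and the limma adjusted p was 0.161 and 0.189.

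Groups that did not overlap were thus found for 2 of 8 members after NMDA, against 14.9% of all miRNAs tested, and for 1 of 8 after bicuculline, against 3.11%. Between the treatments it was 1 of 8, against 13.3%. These shares count either direction. After NMDA both members were lower, while all miRNAs tested gave 10 lower and 17 higher. After bicuculline the member was lower, beside 3 lower and 2 higher. Between the treatments the member was higher after NMDA, beside 20 higher and 4 lower. Where groups do not overlap, the direction within each slide is fixed in advance, so only the sizes within slides are given. For mmu-miR-30c NMDA minus control was −0.19 on slide 1 and −0.14 on slide 2, and bicuculline minus control was −0.27 and −0.09. For mmu-miR-30d, NMDA minus control was −0.20 and −0.09. On slide 2 NMDA minus control rests on NMDA 3 and control 3 alone. Of the 6 neuron-enriched miRNAs, 0 passed limma's adjusted threshold and 0 had an unadjusted p under 0.05 in either comparison with control. Their differences ran from −0.17 for mmu-miR-9 to 0.01 for mmu-miR-128 after NMDA and from −0.23 for mmu-miR-9 to 0.01 for mmu-miR-128 after bicuculline, with mmu-miR-124 at 0.0040 and 0.0022. Their summed level, which the brightest probes dominate, was 3587 to 3642 percent of the scale in controls, 3333 to 3591 after NMDA and 3281 to 3564 after bicuculline, and the mean of mmu-miR-9 within it was 1132, 1014.5 and 971 percent. The summed astroglia-enriched list spanned 315 to 363, 309 to 365 and 300 to 379 percent. The part of cell makeup in the miR-30 values was not tested.

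The remaining probes of these members bear on the same values. The array carried 17 probes for the 8 members, of which 14 were above background in this sense on all arrays. The dimmer probe of mmu-miR-30c read 24.5, 20.2 and 14.3 percent on the control arrays, 17.1, 16.8 and 11.99 on the NMDA arrays, and 16.0, 17.2 and 10.9 on the bicuculline arrays. Its means gave larger differences of −0.35 and −0.41 on the log2 scale against control, but here control 3 lay within the range of both treated groups. The dimmer probe of mmu-miR-30d read 39.5, 37.8 and 33.2 percent on the control arrays, 33.0, 34.0 and 32.5 on the NMDA arrays, and 36.3, 38.2 and 34.0 on the bicuculline arrays. NMDA minus control was −0.15 there, with control 3 below NMDA 2, so on neither dimmer probe were the groups free of overlap. Within pairs of the same number, NMDA minus control was −0.52, −0.26 and −0.25 on the dimmer probe of mmu-miR-30c and −0.26, −0.15 and −0.03 on that of mmu-miR-30d, below 0 in each pair. Across the families 6 further probes were measurable on every array, and 5 of them had the sign of the brightest probe after NMDA, 5 after bicuculline and 5 between the treatments, with gaps of at most 0.22 on the log2 scale.

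**Figure D2:**
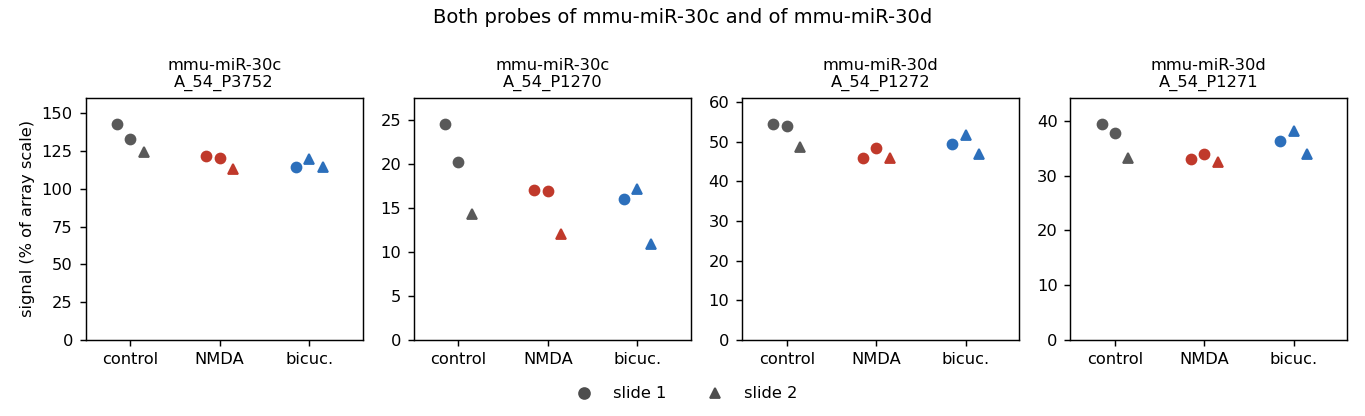
Signal of both probes of mmu-miR-30c and of mmu-miR-30d (y axes, percent of the array's scale, starting at 0) on each array, with circles for slide 1 and triangles for slide 2. On the brighter probe of mmu-miR-30c all control points exceed all treated points, while on its dimmer probe control 3, at 14.3, lies among them.

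mmu-miR-30a was the steadiest of the 8 by its brightest probe. It read 98.1, 105.6 and 99.97 percent on the control arrays, 97.9, 97.5 and 98.7 on the NMDA arrays, and 101, 103 and 97.9 on the bicuculline arrays. The whole set of 9 arrays spanned a 1.08-fold range, compared with 1.63-fold for mmu-miR-30e, the widest. NMDA minus control was −0.05 (95% confidence interval −0.22 to 0.13) and bicuculline minus control −0.01 (−0.20 to 0.18) on the log2 scale. That probe read close to the percentile by which each array was divided, and how far this narrowed its spread was not tested. The dimmer probes of mmu-miR-30a spanned 40.7 to 48.3 and 10.1 to 16.6 percent over the 9 arrays.

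mmu-miR-30b read 67.3, 74.4 and 59.7 percent on the control arrays, 67.8, 71.7 and 65.0 on the NMDA arrays, and 63.8, 62.4 and 52.4 on the bicuculline arrays. The NMDA arrays were all above the bicuculline arrays, whereas the controls spanned most of both. NMDA minus bicuculline was 0.20 ± 0.10 on the log2 scale (SE), 14.8% higher, with an unadjusted p of 0.090 and a limma adjusted p of 0.627. As these groups did not overlap, the sign could not change within a slide or with an array left out. The difference was 0.13 within slide 1, 0.18 within slide 2, and 0.11 without bicuculline 3. Bicuculline minus control was −0.17 (−0.45 to 0.10), and −0.11 with slide as a block. The dimmer probe of this miRNA was well above background on only 2 arrays and could not check these values.

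For mmu-miR-30e the control arrays read 29.5, 31.0 and 31.4 percent, the NMDA arrays 37.4, 30.6 and 28.4, and the bicuculline arrays 32.8, 29.98 and 23.0. The controls were tight and each treated group held arrays on both sides of them. NMDA minus control was 0.06 (−0.21 to 0.33) and bicuculline minus control −0.11 (−0.43 to 0.20), and the latter was 0.03 without bicuculline 3, which read lowest.

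In order of mean log2 level, control was highest for mmu-miR-30a, mmu-miR-30c and mmu-miR-30d, NMDA for mmu-miR-29c, mmu-miR-30b and mmu-miR-30e, and bicuculline for mmu-miR-29a and mmu-miR-29b. The span between the highest and the lowest group mean ran from 0.04 for mmu-miR-29a to 0.20 for mmu-miR-30b, while the SD between arrays of a group ran from 0.04 for mmu-miR-30a to 0.21 for mmu-miR-29c. For mmu-miR-29a, mmu-miR-29b, mmu-miR-29c and mmu-miR-30e the whole span was below that SD, so no neighbors in the order differed beyond the spread. For mmu-miR-30c control stood apart from NMDA by 0.17 in size against an SD of 0.07, while the treatments did not differ beyond it, and for mmu-miR-30b it was bicuculline that stood below control by 0.17 in size against an SD of 0.13, while NMDA and control did not differ beyond it. With slide as a block bicuculline minus control for mmu-miR-30b was −0.11, within that SD. Both steps in the order of mmu-miR-30d exceeded its SD of 0.07, by little, and those of mmu-miR-30a were at or under its SD of 0.04.

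**Figure D3:**
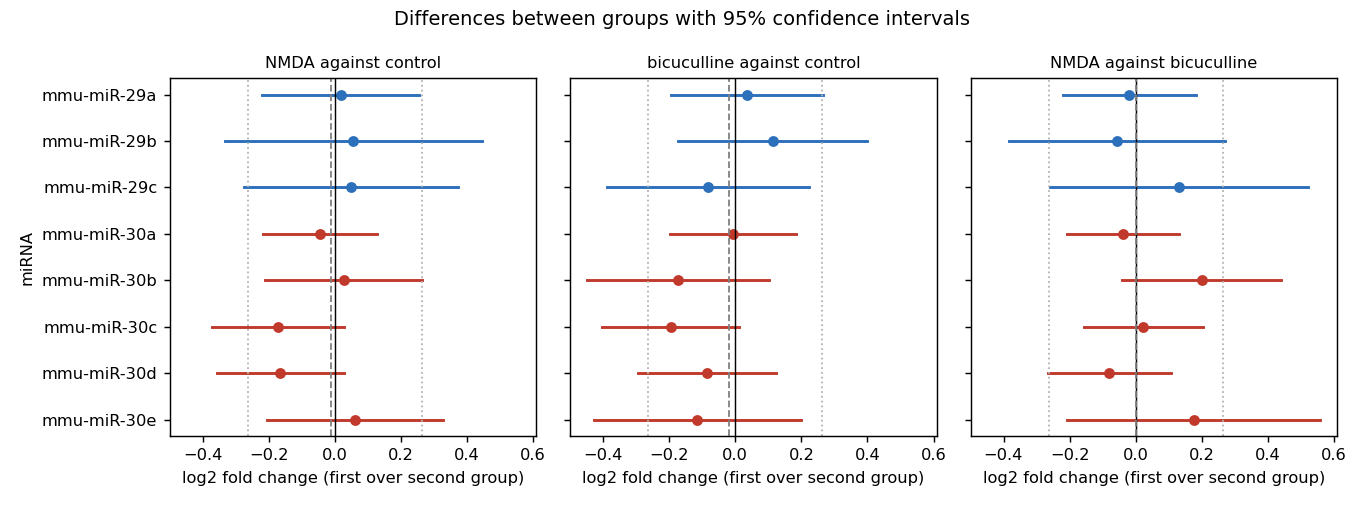
Difference between groups for each member (x axis, log2 fold change of the first over the second group named, points) with its 95% confidence interval (lines), blue for the miR-29 and red for the miR-30 family. The dashed line is the median of all miRNAs tested and the dotted lines are a 1.2-fold change in either direction. In these fits without a block every interval includes 0, and those of mmu-miR-30c and mmu-miR-30d after NMDA reach only to 0.03 above it. With a replicate block, not drawn here, limma's unadjusted p after NMDA was 0.017 for mmu-miR-30c and 0.030 for mmu-miR-30d.

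The size of change that these arrays leave possible differed between members. The intervals used here are those of the fits without a block, which set the pairing of NMDA and control arrays aside. A 20% change was the study's own lower limit for an altered miRNA, and all 24 member differences were smaller than 1.2-fold. The confidence interval lay wholly within a 1.2-fold change in either direction for 2 of 8 members after NMDA (mmu-miR-29a and mmu-miR-30a), against 51 of the 181 miRNAs tested, for 1 of 8 after bicuculline (mmu-miR-30a), against 42 of 161, and for 3 of 8 between the treatments (mmu-miR-29a, mmu-miR-30a and mmu-miR-30c), against 55 of 181. For the others a change of this size in at least 1 direction could be neither shown nor excluded with this number of arrays. After NMDA the intervals of mmu-miR-30c and mmu-miR-30d, which ended at 0.03, left room for such a fall but not for such a rise. Those of mmu-miR-30b and mmu-miR-30e left room for such a rise but not for such a fall. The interval that reached farthest from 0, for mmu-miR-30e between the treatments, ran from −0.21 to 0.56. The intervals of mmu-miR-30a rest on its brightest probe, which read close to the percentile that sets the scale.

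Taken by family, the median difference after NMDA was 0.05 for the miR-29 and −0.05 for the miR-30 members, beside −0.01 for all miRNAs tested. After bicuculline it was 0.04 and −0.11, beside −0.02, with all 5 miR-30 members below 0, which mmu-miR-30c kept under all 15 alternatives, mmu-miR-30b, mmu-miR-30d and mmu-miR-30e under 14 and mmu-miR-30a under 10. Between the treatments it was −0.02 and 0.02, beside 0.0018. The mean log2 level of the miR-30 members minus that of the miR-29 members on the same array, in which the array's scale cancels, was −0.20 ± 0.13 in controls, −0.30 ± 0.14 after NMDA and −0.33 ± 0.06 after bicuculline (SD, n = 3). The groups overlapped, from −0.30 to −0.05, from −0.38 to −0.14 and from −0.38 to −0.27.

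Other families of abundant brain miRNAs also had 0 calls by limma's adjusted p. Of the 8 let-7 miRNAs, which act in differentiation, 0 passed limma's adjusted threshold and 0 had an unadjusted p under 0.05 after NMDA or bicuculline, with medians of −0.03 and −0.01 on the log2 scale. Of the 4 miR-181 miRNAs, 0 passed and 0 had an unadjusted p under 0.05 in either comparison with control, with medians of 0.05 and −0.06. Between the treatments 2 of the 4 had an unadjusted p under 0.05, and their smallest limma adjusted p was 0.173. Groups that did not overlap were found for 0 of 8 let-7 miRNAs in each comparison. For miR-181 it was 1 of 4 after NMDA, 0 after bicuculline and 2 between the treatments. mmu-miR-384-5p, which shares the miR-30 seed, read 29.3, 28.4 and 24.5 percent on the control arrays, 24.8, 26.6 and 25.0 on the NMDA arrays, and 27.1, 25.8 and 25.8 on the bicuculline arrays. Its groups overlapped, with differences from control of −0.10 (−0.32 to 0.12) and −0.06 (−0.28 to 0.17).

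The members varied together only in part. Across the 9 arrays Pearson's r between pairs of miR-29 members ran from 0.40 to 0.64, between pairs of miR-30 members from 0.02 to 0.79, and between members of different families from −0.34 to 0.80. The closest pair was mmu-miR-29c and mmu-miR-30e (r = 0.80), followed by mmu-miR-30c and mmu-miR-30d (r = 0.79). These values describe 9 arrays that share slides and scales, and no test was made of them. Outside the families, the miRNAs most like the miR-29 mean over the 9 arrays were mmu-miR-433* (r = 0.92), mmu-miR-130a (r = 0.91) and mmu-miR-345-5p (r = 0.87), out of 147 candidates whose median r was −0.05. Those most like the miR-30 mean were mmu-miR-9 (r = 0.91), mmu-miR-135a (r = 0.90) and mmu-miR-138 (r = 0.82), also out of 147. As mmu-miR-9 and mmu-miR-138 are on the neuron-enriched list, their own differences from control are given here, at −0.17 and −0.09 after NMDA and −0.23 and −0.16 after bicuculline. The 4 others on that list were at 0.0040 (mmu-miR-124), 0.01 (mmu-miR-128), −0.01 (mmu-miR-137) and −0.05 (mmu-miR-218) after NMDA, and at 0.0022, 0.01, −0.09 and −0.06 after bicuculline.

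The opposite arms of the same hairpins were mostly too dim to measure. Of 8 star names on the array, mmu-miR-30e* alone was well above background on all 9 arrays, at 19.1, 15.5 and 16.3 percent on the control arrays, 16.4, 15.0 and 16.0 on the NMDA arrays and 15.2, 16.1 and 16.6 on the bicuculline arrays. Control 1 was its highest array and the groups overlapped, with differences of −0.10 (−0.34 to 0.14) and −0.08 (−0.32 to 0.16) from control. mmu-miR-29c* was well above background on all 3 NMDA arrays and on 2 arrays of each other group, and differed from control after NMDA by −0.12 (−0.43 to 0.20). mmu-miR-30a* was so on 1 control, 2 NMDA and 2 bicuculline arrays, with 7.62 to 8.87 percent of the scale over all 9. mmu-miR-29a*, mmu-miR-29b*, mmu-miR-30b* and mmu-miR-30c-1* were so on none.

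Scaling set where 0 lies for every member. Scaling to the percentile of all 1857 probes, dim ones included, moved the median of all miRNAs to −0.43 after NMDA and −0.47 between the treatments, beside 0.03 after bicuculline. On that scale all 8 members were below 0 after NMDA and between the treatments, and 5 were called lower between the treatments (mmu-miR-29a, mmu-miR-29b, mmu-miR-30a, mmu-miR-30c and mmu-miR-30d), among 143 calls in all. Relative to the median miRNA, the members' median was 0.03 after NMDA and −0.0032 between the treatments on that scale, against 0.03 and 0.00041 as reported. Quantile normalization called mmu-miR-30d lower, after NMDA by −0.28 (limma adjusted p = 0.032) and between the treatments by −0.20 (limma adjusted p = 0.042), while over the 15 alternatives its adjusted p ran up to 0.998 and 0.993. Relative to the median miRNA, mmu-miR-30c stayed between −0.19 and −0.08 after NMDA and between −0.20 and −0.15 after bicuculline over these 15 alternatives, and mmu-miR-30d between −0.17 and −0.10 after NMDA. Much of this agreement is built in, as the median takes out a change of scale and several alternatives leave the difference unchanged.

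**Figure D4:**
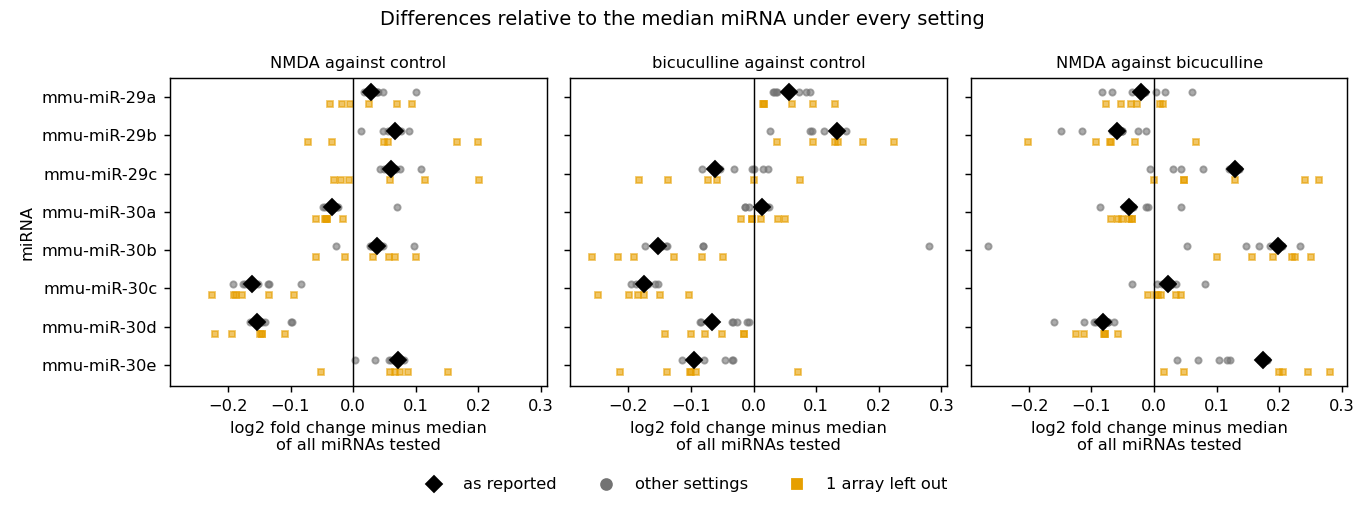
Difference of each member minus the median of all miRNAs tested (x axis, log2 scale) as reported (black diamonds), under 15 other settings (gray circles) and with each of 6 arrays left out (orange squares). After NMDA, mmu-miR-30c and mmu-miR-30d lie left of 0 under every setting shown, while the miR-29 members cross 0 when single arrays are left out. Subtracting the median takes out most of a change of scale, and several settings leave the difference itself unchanged, so many gray circles repeat by design.

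The scanner's own sum over probes departed from the probe signals for 1 member. Such departures were common among all miRNAs, at over 5% for 56 to 65 per array, where 192 to 244 were detected. The total gene signal of mmu-miR-30b on bicuculline 1 was 2.50 times the sum of its probe signals, and on bicuculline 3 it was 0.925 times, whereas no other member differed by over 5% on any array. With that summary bicuculline minus control for mmu-miR-30b was 0.41, against −0.17 from its brightest probe.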

How the data were processed

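miRNA levels were measured on 9 one-colour Agilent arrays. The authors deposited the scanner's spot intensity values (Agilent Feature Extraction 10.7.1.1 on slide 1 and 10.7.3.1 on slide 2), background-subtracted but with no normalization across arrays, and their own table of processed log2 values. Against the scanner values that table was on a log2 scale with column medians of 7.06 to 7.08, and its normalization is not given in the sources used here. It served as an alternative.

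From the intensities, 3278 flagged spots were left out and the spots of a probe averaged. A probe counted as well above background if the scanner marked 50% or more of its spots as such. Each signal was divided by the 75th percentile of 265 probes, floored at 7.94% of it, put on the log2 scale, and read from each miRNA's brightest probe. limma 3.58.1 (R 4.3.3) compared 2 groups at a time, two-sided, without covariates, with Benjamini-Hochberg adjustment over all miRNAs tested and a threshold of 0.05. This step was also tested on simulated data with known changes.

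The members, comparator families and marker lists were chosen with earlier results of these data known. Named besides the members were their other arms, the 3 miRNAs per family most correlated with its mean, and miRNAs with either seed. mmu-miR-30b and mmu-miR-30d had no entry in the sequence table. The array's build was mm9, so RefSeq's GRCm38.p6 tables gave names, gene order and mature sequences, and no coordinates.

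Replicate numbers were checked as pairs from deviations of 156 miRNAs from their group means. Arrays of the same number correlated at 0.36, 0.76 and 0.63 for NMDA and control, so they were taken as paired there, and at 0.59, 0.08 and 0.72 for bicuculline and control and 0.62, −0.03 and 0.72 for NMDA and bicuculline, where they were not. Only the pairs numbered 2 that include bicuculline lay on different slides. Alternatives were other scalings, summaries, filters and floors, normexp with an offset of 50, the methods' t-test, a joint fit of all arrays, blocks and leaving out each array.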

Additional observations from a re-analysis of the deposited data

Results flagged for a closer look

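mmu-miR-30c-2*, the other arm of 1 of the hairpins that give mmu-miR-30c, was in no test because it was well above background on NMDA 3 only. Its signal was higher on all NMDA arrays than on all controls, with a mean of 5.08 percent of the scale after NMDA. It read 4.72, 4.83 and 5.70 percent on the NMDA arrays, 1.70, 2.67 and 2.39 on the control arrays and 1.94, 2.43 and 2.63 on the bicuculline arrays. All 9 values are under the floor of 7.94%, so no fold is given.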

How the results depend on the processing

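Members called went from 0 to 1 after NMDA and from 0 to 1 between the treatments under quantile normalization, and to 5 between the treatments with scaling to all probes, where mmu-miR-30c, at 0.02 as reported, reversed to −0.46 (limma adjusted p = 0.013). The cause was not tested. All other alternatives and each left-out array kept 0 members called in all 3 comparisons (range 0 to 0). That reversal included, the sign of a member changed in 18, 11 and 17 of 120 values under alternatives (NMDA, bicuculline, between the treatments) and in 10, 6 and 3 of 48 with an array left out. Many of the 120 repeat the reported difference, which the lower floor, other filters, joint fit, t-test and replicate block do not alter. mmu-miR-30c stayed below 0 in all of them in both comparisons with control. With an array left out, its lack of overlap with control fixed that sign in advance. The median difference of the 8 members, 0.02 after NMDA, −0.08 after bicuculline and 0.0022 between the treatments, moved by more than the spread between arrays to −0.40 and −0.48 (NMDA, between the treatments) with scaling to all probes, to 0.21 (between the treatments) with no scaling, and to 0.15 and −0.18 (bicuculline, between the treatments) with total gene signal. With single arrays left out it ran from −0.05 to 0.06, from −0.14 to 0.02 (the latter without bicuculline 3) and from −0.02 to 0.07. With slide as a block it was −0.03 after bicuculline. With a replicate block, 0 members were called in each comparison, although the unadjusted p was under 0.05 for mmu-miR-30c and mmu-miR-30d after NMDA, for mmu-miR-30c after bicuculline (limma adjusted p = 0.749) and for mmu-miR-30b between the treatments (limma adjusted p = 0.151), and the smallest adjusted p among members after NMDA was 0.134 for mmu-miR-30c, beside 0.202 for mmu-miR-30d. Some fits without a block also gave members an unadjusted limma p under 0.05. With the authors' table it was 0.035 for mmu-miR-30c and 0.0097 for mmu-miR-30d after NMDA. Between the treatments it was 0.0068 for mmu-miR-30d there, and 0 members were so after bicuculline. The joint fit gave mmu-miR-30c 0.049 after NMDA and 0.029 after bicuculline, with 0 members between the treatments. The smallest limma adjusted p of a member in either alternative was 0.062. All miRNAs called with the replicate block were 17, 2 and 17, against 15, 1 and 16 without it. They were 26, 0 and 30 with quantile normalization, 5, 0 and 7 with total gene signal, 5, 0 and 8 without a filter, 3, 0 and 3 for miRNAs well above background on all 9 arrays (156 tested), and 12, 0 and 10 by the methods' t-test. The mean of all probes gave 0 after bicuculline, as did leaving out bicuculline 1 or bicuculline 2. Scaling to all probes gave 143 between the treatments. With 3 arrays a group, members' intervals reached 0.17 to 0.39 on either side after NMDA.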
